A study of Mus musculus with 4 samples.

Results

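The genes described here encode the transcription factor NRF2 (Nfe2l2), its repressor KEAP1, and 8 enzymes and transporters that NRF2 is known to induce: Slc7a11, Gclc, Gclm, Gsr, Txnrd1, Srxn1, Prdx1 and Hmox1. They were taken as all non-control probes whose gene name in the array files equals 1 of these 10 symbols, which gave 18 probes of 61307 probes and 10 gene names of 50090. RNA came from C3H10T1/2, an immortalised mouse embryo fibroblast line used to score chemical transformation, and was read in 1 colour on 4 arrays. The 2 arrays named 3MC+TPA held RNA of cells given 3-methylcholanthrene (3MC, a polycyclic aromatic hydrocarbon) at 2.5 µg/ml for 2 days, then plain medium for 4 days, then the phorbol ester TPA at 100 ng/ml in repeated doses over 2 weeks, and then plain medium for 4 weeks. The 2 control arrays held RNA of the same line, with the agent labelled control, cultured for 6 weeks. The labels give 6 weeks of culture for the 3MC+TPA cells too, though the steps listed for them run longer. The labels do not say whether same-group arrays stem from separate flasks, so each p-value reflects the scatter of these 4 arrays and possibly no more than technical scatter. The labels describe no separation of transformed foci from the surrounding monolayer before RNA was taken. In such bulk RNA, fewer cells of a type and less RNA per cell cannot be told apart.

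NRF2 is held low in resting cells by KEAP1, which hands it to a ubiquitin ligase built on cullin 3. Electrophiles and oxidants modify cysteines of KEAP1, NRF2 then accumulates, pairs with a small MAF protein and binds antioxidant response elements in the promoters and enhancers of its targets. Because this control acts on the NRF2 protein, the mRNA levels of Nfe2l2 and Keap1 are not a measure of pathway activity, and the target genes are the usual readout of it. The targets take up cystine, make and recycle glutathione, reduce thioredoxin and peroxiredoxins, and break down haem.

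On all 4 arrays 13 of 13 fibroblast markers were well above background, the scanner's flag for a spot brighter than its local background. Of these, 2 rose (Thy1 and Fap) and 4 fell (Pdgfra, Pdgfrb, Dcn and Lum), and their summed signal was 10.65 and 10.70 on the 3MC+TPA arrays and 11.05 and 10.89 on the control arrays. Leaving out either 3MC+TPA array left 0 higher and 1 lower, and only Lum of these 6 genes passed without each array. Of 14 macrophage and leukocyte markers, 8 were well above background on none of the arrays, among them the pan-leukocyte gene Ptprc and the macrophage genes Adgre1 and Lyz2, and 5 were well above background on all 4. Aif1, of that list, rose 2.68-fold (adjusted p = 0.014), and did not pass without 3MC+TPA array 2, control array 1 or control array 2 (adjusted p between 0.055 and 0.072). Cd68 read -2.31 and -2.15 on the 3MC+TPA arrays and -3.87 and -2.73 on the control arrays (adjusted p = 0.13), and Cd14 read 1.84 and 2.13 on the 3MC+TPA arrays and 1.71 and 2.15 on the control arrays (adjusted p = 0.90). Csf1r lay lower, at -6.45 and -4.72 on the 3MC+TPA arrays and -4.44 and -3.39 on the control arrays (adjusted p = 0.15). Fcer1g and C1qb, the remaining tested markers of that list, differed by -0.19 and -0.12 on the log2 scale (adjusted p = 0.70 and 0.88). The summed signal of that list was 2.17 and 2.49 on the 3MC+TPA arrays and 1.98 and 2.36 on the control arrays (sums as log2, relative to each array's 75th percentile). Of 8 epithelial and 6 endothelial markers, 4 each were well above background on no array. No epithelial marker passed. The endothelial marker Tek, well above background on both 3MC+TPA arrays and neither control array, rose at least 1.77-fold (adjusted p = 0.0088). Tek thus entered the test through the 3MC+TPA arrays alone, where it was brighter. It did not pass without 3MC+TPA array 1 or 2 (adjusted p = 0.059 and 0.063). Vwf, the other endothelial marker tested, lay lower, at -5.03 and -3.79 on the 3MC+TPA arrays and -3.77 and -3.48 on the control arrays (adjusted p = 0.26). The part of these markers in the results was not tested. Over 29137 probes well above background on all 4 arrays, Pearson's r across probes was 0.994 between the 3MC+TPA arrays and 0.993 between the control arrays, against 0.966 to 0.974 between groups, and no probe had identical values on 2 arrays. Of 24980 features tested (gene names, each read by its brightest probe), 1866 rose and 2086 fell after 3MC and TPA (limma, Benjamini-Hochberg adjusted p under 0.05).

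Of the 10 NRF2 redox genes, 1 fell and none rose in 3MC+TPA cells. The gene that fell, 5.88-fold, was Slc7a11, which encodes xCT, the transporter that brings in cystine for glutathione synthesis. The share of all features called was 15.8%, with 8.35% lower and 7.47% higher, so that the count of 1 in 10 was near the share over all features. The other 9 members differed by between -0.80 and 0.58 on the log2 scale, and the median of the 10 was -0.36, beside -0.01 over all features tested. At an unadjusted p under 0.05, 4 members were lower and 1 was higher, or 5 of 10, beside 33.7% of all features. The arrays of the groups did not overlap for 5 members that lay lower and 1 that lay higher, beside 64.0% of all features in either direction (32.0% lower and 31.9% higher). By their brightest probe, all 10 were well above background on all 4 arrays, so none entered the test through 1 group alone.

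**Figure D1:**
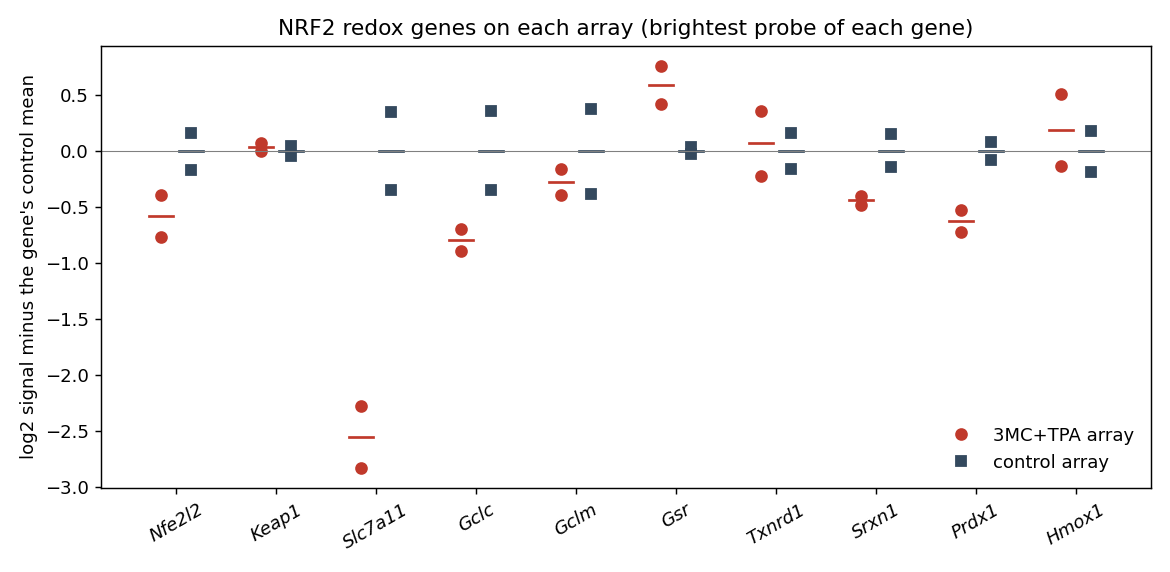
Log2 signal of the brightest probe of each gene on each array, minus that gene's mean on the control arrays (vertical axis), with 3MC+TPA arrays as red circles and control arrays as dark squares. Short lines are group means of 2 arrays. Slc7a11 stands far below its control arrays, and the mean differences of the other 9 genes lie between -0.80 and 0.58.

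Neither regulator passed the test. For Nfe2l2, the brightest probe read 4.91 and 4.53 on the 3MC+TPA arrays and 5.13 and 5.46 on the control arrays (log2 of signal over the 75th percentile of that array, as for all levels below). Both exposed arrays lay below both control arrays, with means of 4.72 ± 0.27 in 3MC+TPA cells and 5.30 ± 0.24 in control cells (SD, n = 2 each). The log2 difference of -0.58 ± 0.22 (SE) had an adjusted p of 0.14 by limma and a 95% confidence interval of -1.13 to -0.03. Its other probe, which shares no run of over 5 bases with it, stood 0.50 lower in 3MC+TPA cells (log2 difference -0.50 ± 0.19, SE, adjusted p = 0.14). The call was therefore not made on either probe. Keap1 read 3.60 and 3.67 on the 3MC+TPA arrays and 3.56 and 3.65 on the control arrays. All 4 values lay close together and the groups overlapped. The log2 difference was 0.04 ± 0.15 (SE, adjusted p = 0.89), with an interval of -0.35 to 0.42.

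The largest difference among the 10 genes was that of Slc7a11, measured by 3 probes of 60 bases. The first 30 bases of each are given, since the result turns on these probes and only 1 of them was well above background on all 4 arrays. No pair of them shares a run of over 7 bases, so they read separate stretches of the transcript.
Slc7a11 probe P368057: agtaatgtatcaggagctttatgtaaatgt
Slc7a11 probe P663446: tgcaaccaaaattttaactaggttcttctt
Slc7a11 probe P129502: cctctagcgtattcaaattaatttttgagc
Probe P368057, the brightest, read -4.12 and -4.67 on the 3MC+TPA arrays and -2.19 and -1.49 on the control arrays. The groups were far apart, with means of -4.39 ± 0.39 in 3MC+TPA cells and -1.84 ± 0.50 in control cells (SD, n = 2 each). The log2 change of -2.56 ± 0.31 (SE) is 5.88-fold lower (limma adjusted p = 0.0093, interval -3.36 to -1.75), which left 17.0% of the control signal. On the 3MC+TPA arrays this probe was close to the dimmest signals still well above background, -4.82 and -4.80.

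The remaining probes of Slc7a11 lay lower too. Probe P663446 read -6.74 on both 3MC+TPA arrays, where it was not well above background, and -4.46 and -3.42 on the control arrays. It was at least 1.83-fold lower, a bound that sets the control mean against the dimmest well-measured signal of each exposed array (adjusted p = 0.010 over all probes, from the fit to the signals themselves). Probe P129502 read -7.14 and -7.12 on the 3MC+TPA arrays, which are substitute values for spots at background, and -5.18 and -3.53 on the control arrays. It was well above background on control array 2 alone and was not tested. Over the 17 probes of the 10 genes that were tested, 2 were lower, both of Slc7a11, and none higher, beside 8.02% lower and 7.53% higher of all probes. Of these 2, P663446 entered the test through the control arrays alone, where it was brighter, so its call is no separate support. Over probes well above background on all 4 arrays, 1 probe of the members was called. At an unadjusted p under 0.05, 9 of the 17 passed, beside 33.4% of all probes, and the groups did not overlap for 9 that lay lower and 3 that lay higher, beside 64.1% of all probes (31.1% lower and 33.0% higher). The call of Slc7a11 ended without 3MC+TPA array 2 (log2 change -2.28, adjusted p = 0.059). Background correction by normexp gave a smaller log2 change of -1.33 (adjusted p = 0.0048).

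**Figure D2:**
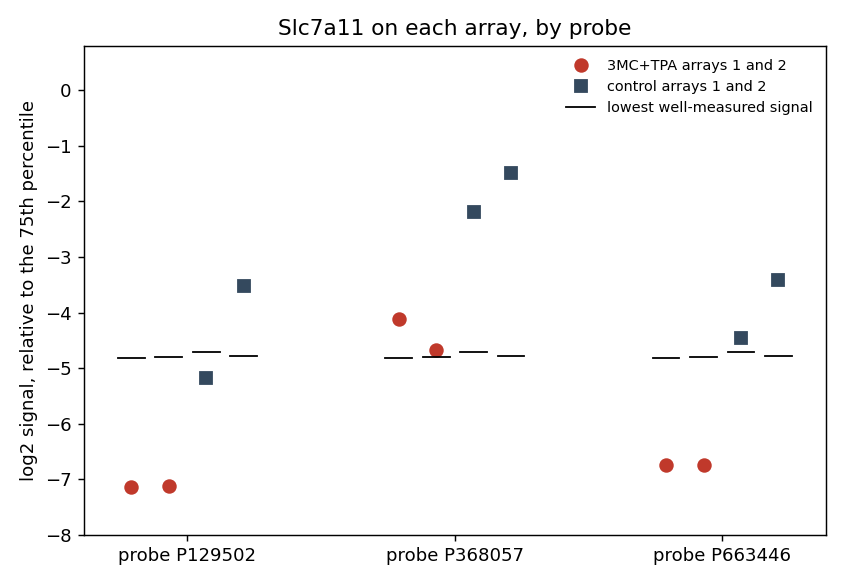
Log2 signal of the 3 Slc7a11 probes, relative to each array's 75th percentile, with 3MC+TPA arrays 1 and 2 as red circles and control arrays 1 and 2 as dark squares. The horizontal marks give each array's lowest signal well above background; on the 3MC+TPA arrays, probe P368057 alone lies above the marks, at -4.12 and -4.67.

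The promoter of Slc7a11 is shown because it carries matches to the element through which ATF4, the transcription factor of the amino acid shortage response, is known to act on this gene. The sequence runs over the 250 bases before the transcript start, chr3:50443614-50443863 on the minus strand of GRCm38.p6 (RefSeq), with matches to the amino acid response element core TGATGNAA on either strand in capitals.
Slc7a11 promoter: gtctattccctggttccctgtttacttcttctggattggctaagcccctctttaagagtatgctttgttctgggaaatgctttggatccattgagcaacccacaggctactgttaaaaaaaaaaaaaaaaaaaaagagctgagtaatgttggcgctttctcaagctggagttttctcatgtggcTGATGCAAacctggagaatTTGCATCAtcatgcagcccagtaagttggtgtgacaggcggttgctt
The matches begin 66 and 47 bases before the start and face opposite ways. Of 32851 mouse promoter windows (250 bases before to 50 after a start), 3.97% hold at least 1 such match and 0.07% hold 2 or more. Of the 7 members with a window in the table, Slc7a11 was the 1 with this match. A match in letters is a description and shows no binding.

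Neither gene of glutamate-cysteine ligase, the first enzyme of glutathione synthesis, passed the test. Gclc, the catalytic subunit, which carries out the limiting step, read 1.11 and 1.30 on the 3MC+TPA arrays and 1.65 and 2.36 on the control arrays. All exposed values lay below the control values, but the control arrays stood far apart from each other. The log2 difference was -0.80 ± 0.27 (SE, adjusted p = 0.11, interval -1.49 to -0.10), and leaving out control array 1 or 2 gave -1.15 or -0.44. Gclm, the modifier subunit that lowers the feedback inhibition of the enzyme by glutathione, read -1.28 and -1.05 on the 3MC+TPA arrays and -1.27 and -0.51 on the control arrays. Here the groups overlapped, and the log2 difference of -0.28 ± 0.29 (SE, adjusted p = 0.55) changed sign without control array 2, to 0.10, and without scaling between arrays, to 0.07. The interval for Gclm, -1.02 to 0.46, does not exclude a 2-fold lower level.

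Among the reductases and thiol peroxide enzymes, Gsr was the 1 member that lay higher on every exposed array. Gsr, glutathione reductase, which returns oxidised glutathione to its reduced form with NADPH, read 1.37 and 1.71 on the 3MC+TPA arrays and 0.92 and 0.99 on the control arrays. The log2 difference was 0.58 ± 0.18 (SE, adjusted p = 0.094, interval 0.12 to 1.05). Its other probes gave 0.49 and 0.59 (adjusted p = 0.12 each), all with groups that did not overlap. These are not 3 separate readings, since probes P359625 and P91604 share 39 of 60 bases. Gsr passed by normexp (0.57, adjusted p = 0.048) and without scaling (0.93, adjusted p = 0.030).

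Txnrd1, the cytosolic selenoenzyme that reduces thioredoxin, read 5.39 and 4.81 on the 3MC+TPA arrays and 4.87 and 5.19 on the control arrays. The exposed arrays spanned the control arrays on both sides, and the log2 difference was 0.07 ± 0.25 (SE, adjusted p = 0.88, interval -0.58 to 0.72). Its sign turned on leaving out 3MC+TPA array 1 (-0.22) or control array 1 (-0.09). Srxn1, sulfiredoxin, which repairs over-oxidised peroxiredoxins, read 3.34 and 3.42 on the 3MC+TPA arrays and 3.68 and 3.97 on the control arrays by its brightest probe. That probe gave a log2 difference of -0.44 ± 0.17 (SE, adjusted p = 0.15, interval -0.88 to 0.01), and the other 2 gave -0.36 and -0.53 (adjusted p = 0.35 and 0.25). All 3 probes of Srxn1 thus lay lower by their means and none passed.

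Prdx1, an abundant peroxidase that removes hydrogen peroxide, came nearest to the threshold after Slc7a11. It read 5.67 and 5.48 on the 3MC+TPA arrays and 6.12 and 6.28 on the control arrays. The groups did not overlap, and the log2 difference of -0.62 ± 0.17 (SE) is 1.54-fold lower (adjusted p = 0.066, interval -1.05 to -0.20). The other probe gave -0.32 ± 0.15 (SE, adjusted p = 0.20). Prdx1 passed by normexp (adjusted p = 0.032) and with a trend of the spread on signal (adjusted p = 0.018), and without scaling between arrays the difference was -0.28.

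Hmox1, haem oxygenase 1, which breaks haem down to biliverdin, iron and carbon monoxide and is also under the repressor BACH1, read 4.21 and 4.85 on the 3MC+TPA arrays and 4.15 and 4.52 on the control arrays. The groups overlapped, and the log2 difference was 0.19 ± 0.27 (SE, adjusted p = 0.66, interval -0.51 to 0.90). Without 3MC+TPA array 2 it was -0.13. The interval excludes a 2-fold change in either direction for Hmox1, as it does for Keap1, Txnrd1 and the brightest probe of Srxn1. Another Srxn1 probe, P593200, had an interval of -1.25 to 0.18, which does not exclude a 2-fold lower level.

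**Figure D3:**
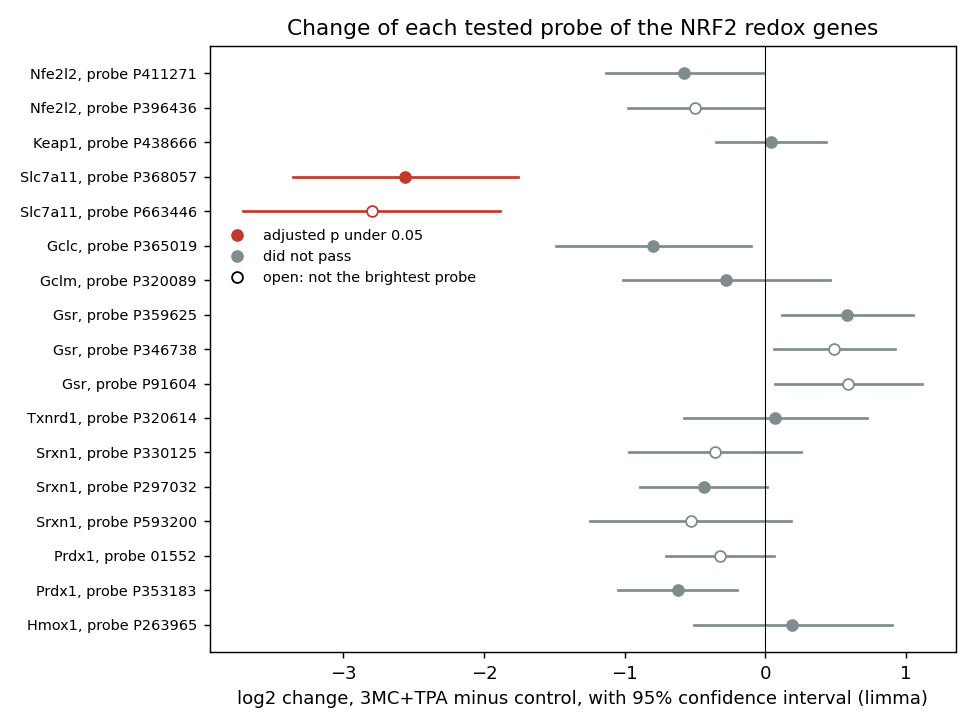
Log2 change of each of the 17 tested probes (3MC+TPA minus control, horizontal axis) with its 95% confidence interval from limma; filled points are the brightest probe of a gene, and red marks an adjusted p under 0.05. The intervals of both Slc7a11 probes end at or below -1.76, whereas the other points lie between -0.80 and 0.59. Probe P663446 of Slc7a11 was not well above background on the 3MC+TPA arrays. Its interval is fitted to those signals, and its bound is at least 1.83-fold lower.

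A gap between the control arrays ran through the members. Control array 2 stood above control array 1 for 10 of 10 members, with a median gap of 0.33, whereas over all features 46.6% lay above and the median gap was -0.02. The 3MC+TPA arrays showed no such gap, with array 2 above array 1 for 6 of 10 members and a median gap of 0.08. The median log2 difference over the members was -0.62 with control array 1 left out and -0.11 with control array 2 left out.

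Antioxidant response element matches were found in the promoter windows of some members. Of the 7 members with a window in the RefSeq table, 5 hold the core TGACNNNGC on either strand (Nfe2l2, Srxn1, Gclm, Prdx1 and Txnrd1). Counted by window, 5 of the 9 windows of members hold it, beside 12.4% of all 32851 windows. Txnrd1 has 3 windows and the match lies in 1 of them. The matches before the start are shown in capitals with their neighbouring bases (GRCm38.p6), to let them be set beside the changes given above.
Nfe2l2 element: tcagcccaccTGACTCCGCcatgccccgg
Gclm element: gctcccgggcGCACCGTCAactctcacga
Prdx1 element: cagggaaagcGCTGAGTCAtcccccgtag
Txnrd1 element: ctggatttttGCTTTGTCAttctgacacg
They lie at chr2:75704885-75704913 on the minus strand for Nfe2l2, and on the plus strand at chr3:122245413-122245441 for Gclm, chr4:116685456-116685484 for Prdx1 and chr10:82859104-82859132 for Txnrd1. The match of Prdx1 overlaps a match to TGANTCA, the AP-1 element through which phorbol esters are known to act. Prdx1 holds 2 AP-1 matches and Srxn1 holds 2, whereas 7.81% of all windows hold at least 1 and 0.46% hold 2 or more. Of the 5 genes with an antioxidant core, none was called, beside 15.8% of all features. So few genes cannot show whether matches go with calls. Slc7a11, which was called, had no match in this window; the letters of 1 short window say nothing of elements farther away.

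Of 16 partners and regulators of NRF2 tested, 2 rose and none fell (median 0.22), or 12.5% called, near the 15.8% of all features. Bach2, a relative of BACH1 that represses such elements in lymphocytes and neurons, rose 5.04-fold, at 1.42 and 1.32 on the 3MC+TPA arrays and -0.66 and -1.26 on the control arrays (log2 change 2.33 ± 0.24, SE, limma adjusted p = 0.0057). Nfe2l1, which encodes the related factor NRF1 that drives proteasome genes, rose 1.72-fold (adjusted p = 0.049), and its call ended without any 1 of the 4 arrays (adjusted p between 0.083 and 0.18). With all 4 arrays, Nfe2l1 also did not pass by the authors' deposited values or with the replicate number as a block (limma adjusted p = 0.053 and 0.052). For genes that did not pass, Bach1 differed by 0.05 ± 0.23, Cul3 by -0.04 ± 0.15 and the small MAF gene Mafg by 0.37 ± 0.17 (log2, SE, adjusted p = 0.91, 0.87 and 0.20). The difference of Cul3 was 0.30 without scaling between arrays, and that of Bach1 was -0.23 without 3MC+TPA array 2.

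Of 20 genes around cystine and glutathione tested, 3 rose and 4 fell (median -0.32), or 35.0% called, beside 15.8% of all features (7.47% higher and 8.35% lower). This share only describes the list, which was chosen with earlier results of these data known. Mgst2, a membrane-bound glutathione transferase, fell 6.79-fold, at 0.98 and 1.09 on the 3MC+TPA arrays and 3.43 and 4.16 on the control arrays (adjusted p = 0.0051). Glrx, glutaredoxin, fell 2.26-fold (adjusted p = 0.011), and Mgst1 and the 5-oxoprolinase gene Oplah fell 2.20-fold and 2.06-fold. In the other direction, Cbs, which feeds homocysteine into cysteine synthesis, was at least 5.84-fold higher, at -2.50 and -1.90 on the 3MC+TPA arrays, with neither control array well above background (adjusted p = 0.0092). That bound holds for the main background correction, and with normexp the log2 change was 1.13 (adjusted p = 0.0063). Cbs entered the test through the 3MC+TPA arrays alone, where it was brighter, and its call and its place in the count carry that limit. Chac1 and Ggct, which act in the breakdown of glutathione, rose 3.99-fold and 2.22-fold (adjusted p = 0.020 and 0.017). The counts without single arrays were 0 to 2 higher and 1 to 2 lower. Without 3MC+TPA array 2 Cbs (adjusted p = 0.063) did not pass, nor did Chac1 without 3MC+TPA array 2 or control array 2 (adjusted p = 0.073 and 0.092). Glrx and Ggct did not pass without 3MC+TPA array 1, 3MC+TPA array 2 or control array 1 (adjusted p between 0.051 and 0.070 for Glrx and between 0.065 and 0.093 for Ggct). Mgst1 and Oplah did not pass without any 1 of the 4 arrays (adjusted p between 0.054 and 0.088 and between 0.060 and 0.11), whereas Mgst2 passed without each.

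The partner of xCT could not be read with the same certainty. Slc3a2, the heavy chain that carries xCT to the membrane, read 4.82 on 3MC+TPA array 1 and -3.77 on 3MC+TPA array 2, against 4.89 and 5.16 on the control arrays, by its brightest probe. Its other probe read -0.97 and -0.23 on the 3MC+TPA arrays and -0.39 and -0.11 on the control arrays (log2 difference -0.35 ± 0.29, SE, adjusted p = 0.44 over all probes). The low value on 3MC+TPA array 2 was thus seen with 1 probe of 2. With it, the log2 difference was -4.50 ± 2.70 (SE, adjusted p = 0.30), without that array it was -0.20 (adjusted p = 0.62), and without 3MC+TPA array 1 it was -8.79 (adjusted p = 0.0059).

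Of 18 thioredoxin and peroxiredoxin genes, 1 rose and 1 fell (median 0.10), or 11.1% called, near the 15.8% of all features. Prdx4, the peroxiredoxin of the endoplasmic reticulum, fell 2.26-fold, at 3.52 and 3.47 on the 3MC+TPA arrays and 4.61 and 4.73 on the control arrays (adjusted p = 0.011). Msrb3, a methionine sulfoxide reductase, rose 2.55-fold (adjusted p = 0.023), with 2 of its 3 probes passing over all probes. Txn1, thioredoxin itself, differed by -0.19 ± 0.16 (log2, SE, adjusted p = 0.46). With control array 2, 3MC+TPA array 1 or 3MC+TPA array 2 left out, Prdx4 did not pass, at log2 changes of -1.12, -1.20 and -1.15. Msrb3 did not pass in these settings either, at log2 changes of 1.06, 1.33 and 1.38.

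Of 25 other known targets of NRF2, 6 fell and 1 rose (median -0.40), or 28.0% called, beside 15.8% of all features (8.35% lower and 7.47% higher). Here too the list was chosen with earlier results of these data known, and the share only describes it. Nqo1, the quinone reductase that is also a target of the aryl hydrocarbon receptor, read 2.46 and 2.45 on the 3MC+TPA arrays and 3.68 and 3.83 on the control arrays, and fell 2.46-fold (log2 change -1.30 ± 0.15, SE, adjusted p = 0.0082). The NADPH producers Idh1 and G6pdx fell 4.28-fold and 2.86-fold (adjusted p = 0.0052 and 0.017). The carbonyl reductases Cbr3 and Cbr1 fell 2.45-fold and 2.23-fold, and the epoxide hydrolase Ephx1 2.27-fold (adjusted p = 0.015, 0.013 and 0.019). Osgin1, an oxidative stress induced growth inhibitor, rose 1.83-fold (adjusted p = 0.038). Without control array 1 the count was 5 lower, without control array 2 it was 2, without 3MC+TPA array 1 it was 1 and without 3MC+TPA array 2 it was 3, with none higher. Nqo1 did not pass without 3MC+TPA array 1 or 2, though its log2 change stayed at -1.31 and -1.29. G6pdx did not pass without 3MC+TPA array 1 or control array 2, at log2 changes of -1.26 and -1.36. Cbr3 and Cbr1 did not pass without 3MC+TPA array 1, 3MC+TPA array 2 or control array 2 (adjusted p between 0.058 and 0.090), Ephx1 without 3MC+TPA array 1, control array 1 or control array 2 (adjusted p between 0.076 and 0.083), and Osgin1 without any 1 array (adjusted p between 0.072 and 0.14). Idh1 passed without each of the 4.

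Beside Hmox1, the genes of haem and iron handling held 1 call in 18, a rise, with a median of 0.10. That is 5.56% called, beside 15.8% of all features. Slc40a1, the iron exporter ferroportin, rose 2.99-fold, at 0.99 and 0.44 on the 3MC+TPA arrays and -0.40 and -1.33 on the control arrays (adjusted p = 0.048). Its call ended on leaving out control array 2 (log2 change 1.12, adjusted p = 0.13) or either 3MC+TPA array (adjusted p = 0.19 for array 1 and 0.12 for array 2). With all 4 arrays, Slc40a1 also did not pass by the authors' deposited values (limma adjusted p = 0.053) or with quantile normalization (limma adjusted p = 0.052). Hmox2, the constitutive haem oxygenase, differed by -0.06 ± 0.17 (log2, SE, adjusted p = 0.83). Of 7 superoxide and peroxide genes tested, 1 was higher, with a median of -0.23, or 14.3% called, near the same 15.8%. It was Duox1, a hydrogen peroxide producing oxidase (log2 change 2.07 ± 0.33, SE, adjusted p = 0.019), at -2.85 and -2.59 on the 3MC+TPA arrays and -5.25 and -4.33 on the control arrays, with control array 2 alone of the controls well above background. The size is uncertain at so dim a signal, and was 0.73 (log2) with normexp background correction (adjusted p = 0.015). Duox1, the only call of its list, entered the test through the 3MC+TPA arrays alone, where it was brighter. Duox1 did not pass without 3MC+TPA array 1 (adjusted p = 0.087) or 2 (adjusted p = 0.11).

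ATF4 and the stress genes around it were listed because Slc7a11 is among the known targets of ATF4. Of 14 tested, 7 rose and 1 fell, with a median of 0.69, or 57.1% called, beside 15.8% of all features (7.47% higher and 8.35% lower). The list was chosen with earlier results of these data known, so this share is a description and no evidence of an excess. Atf3 rose 5.04-fold (adjusted p = 0.0045), the amino acid exchanger gene Slc7a5 3.16-fold (adjusted p = 0.036), the pseudokinase gene Trib3 2.92-fold (adjusted p = 0.038) and the folate enzyme gene Mthfd2 2.48-fold (adjusted p = 0.036). Atf4 itself read 4.00 and 4.39 on the 3MC+TPA arrays and 3.17 and 3.22 on the control arrays, a 2.01-fold rise (adjusted p = 0.029). The asparagine synthetase gene Asns and the serine synthesis gene Psat1 were the others that rose, 1.75-fold and 1.67-fold (adjusted p = 0.026 and 0.05). Psat1 thus passed only just, under the threshold before rounding. The glutamine transporter gene Slc1a5 fell 1.99-fold (adjusted p = 0.034). The counts rest on all 4 arrays: without control array 1 they were 2 higher, without control array 2 they were 1, without 3MC+TPA array 1 they were 3 and without 3MC+TPA array 2 they were 1, with none lower. Atf4, Asns, Psat1 and Slc1a5 did not pass in any of these 4 (adjusted p between 0.058 and 0.18), and Atf3 passed in each. Trib3 and Mthfd2 did not pass without 3MC+TPA array 2, control array 1 or control array 2 (adjusted p between 0.072 and 0.14), nor Slc7a5 without 3MC+TPA array 1, 3MC+TPA array 2 or control array 2 (adjusted p between 0.091 and 0.16).

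**Figure D4:**
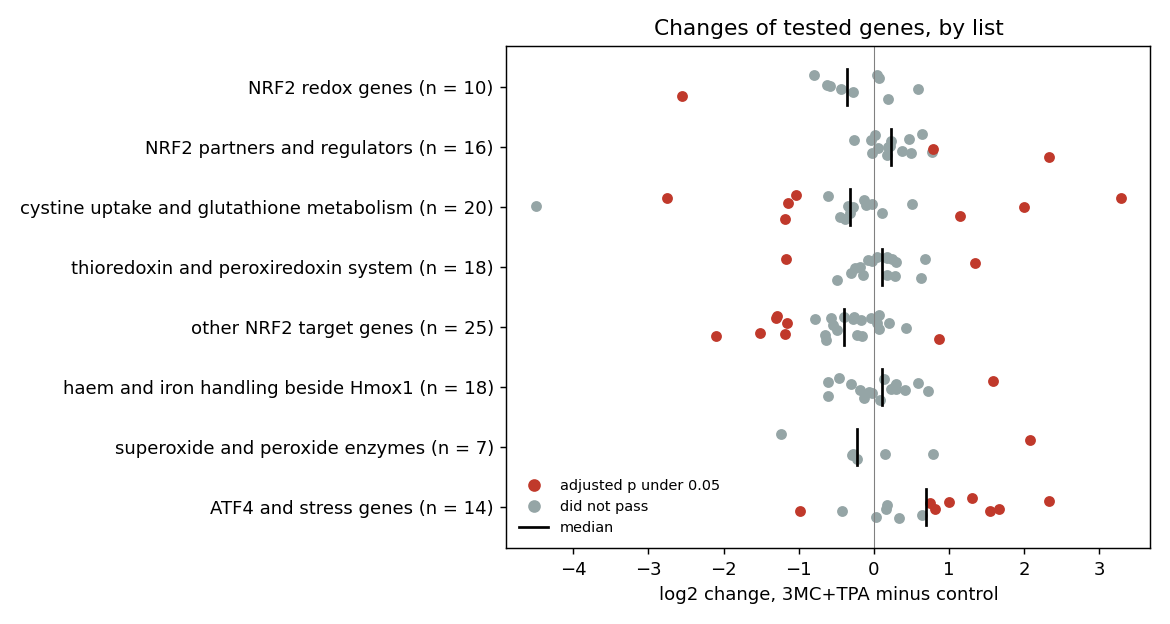
Log2 change (3MC+TPA minus control, horizontal axis) of the tested genes of each list, red where the adjusted p was under 0.05, with the median of each list as a black line. The medians run between -0.40 for other NRF2 target genes and 0.69 for ATF4 and stress genes; the NRF2 redox genes have a median of -0.36, and the far left grey point is Slc3a2 at -4.50.

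The direction of 6 members was the same under every setting run, while some calls depended on the setting. Many settings could not turn the direction. Those that varied only the filter, the test or the replicate block left the difference unchanged. The groups of these 6 members did not overlap, so leaving out a single array could not turn the sign. Slc7a11 was lower in 16 of 16 alternative settings and called in 13. Gsr was higher in 16 of 16 and called in 2, and Prdx1 was lower in 16 of 16 and called in 2. Nfe2l2, Gclc and Srxn1 lay lower under every setting run, with log2 differences between -0.77 and -0.23, between -1.15 and -0.44 and between -0.59 and -0.09, and were called in none.

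**Figure D5:**
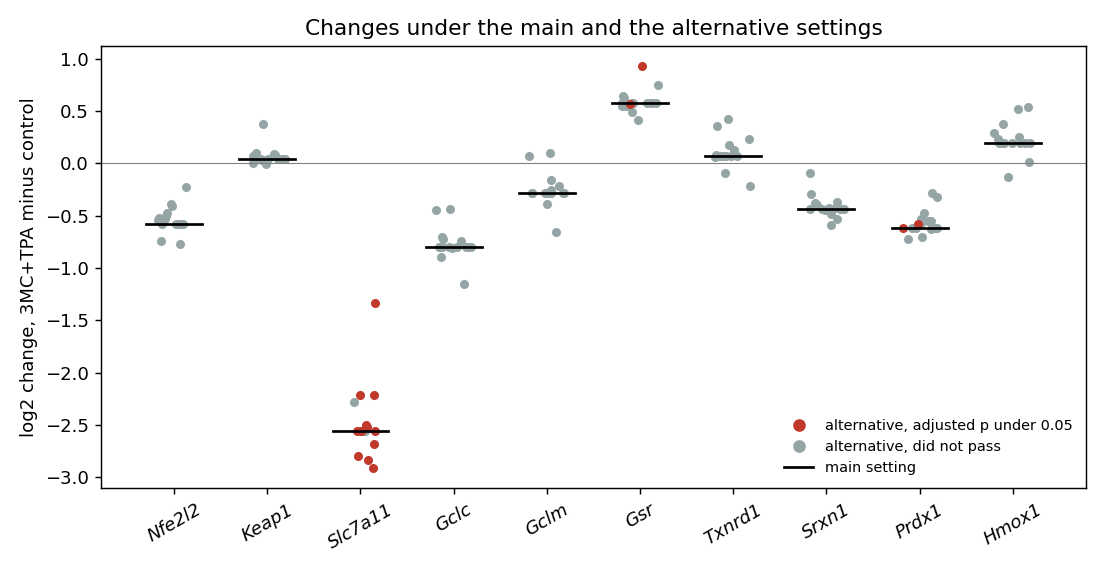
Log2 change of each member (3MC+TPA minus control, vertical axis) under the main setting (black line) and under each alternative (points, red where the adjusted p was under 0.05). Slc7a11 lies between -2.91 and -1.33, away from the other 9 genes, and Keap1, Gclm, Txnrd1 and Hmox1 have points on both sides of 0.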

How the data were processed

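RNA of 4 samples was read on 1-colour Agilent arrays, 1 array a sample, all on 1 slide. Per the file headers, the deposited intensity values are processed signals from Agilent Feature Extraction 10.7.3.1, already background-subtracted. The authors' deposited log2 table (GeneSpring GX 11.5, per the submitters' processing notes) differed from the log2 values used here by a constant of at most 0.015 per array, to within 0.01 for at least 61236 probes on each array, and served as an alternative; its scale, centring and direction were thereby settled. Here, the log2 signal was set relative to the 75th percentile of an array's non-control spots, outlier spots were left out, and the brightest probe stood for a gene name. Features well above background on both arrays of at least 1 group were tested with limma 3.58.1 in R 4.3.3 (lmFit, eBayes, 2-sided), with Benjamini-Hochberg adjustment over all features and a threshold of 0.05. The test was also tried on simulated data, where it recovered 2 of 50 changes of 2-fold, 26 of 50 of 4-fold and 42 of 50 of 8-fold. Far fewer features were changed there than were called here, so these shares are no estimate for the real arrays. A gene that did not pass may still have changed. A bound ("at least N-fold") uses each array's lowest well-measured signal. The number of arrays limits precision. Slide position and group cannot be told apart.

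The members and lists were chosen with earlier results of these data known. Genes named beside the members were up to 4 called genes of each list with the largest change, plus Nqo1, Slc3a2, Txn1, Bach1, Cul3, Mafg, Hmox2, Atf4 and Nfe2l1; Mgst1, Oplah, Ggct, Cbr1, Ephx1, Osgin1, Asns, Psat1, Slc1a5 and the cell markers were added after their values were seen. Alternatives varied the background correction, scaling, filter, probe choice, test and arrays. Leaving out an array leaves a single array in its group, so a call can end there through lost power while the change stays alike. Promoter sequences came from RefSeq (GRCm38.p6), which matched 7 of the 10 members.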

Additional observations from a re-analysis of the deposited data

How the results depend on the processing

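The count of NRF2 redox genes called, 1, was 3 with normexp background correction, 2 without scaling between arrays, 2 with a trend of the spread, and 0 with no filter on dim probes (adjusted p of Slc7a11 0.082) or by the methods' t-test (2 at an unadjusted p under 0.05). It was 0 to 1 without single arrays. The count of their probes, 2, was 4 with normexp, 5 without scaling, 1 over probes well above background on all 4 arrays, 0 with no filter, 0 by the methods' t-test and 0 to 4 without single arrays. Over all features, 3952 calls became 6726 without scaling, 907 with no filter, 868 with the second brightest probe (5592 features have one), 23 by the methods' t-test (5726 unadjusted) and 1424 to 2800 without single arrays. With normexp and with a trend of the spread, the calls over all features were 5097 and 5213. The settings that raised the count of members called thus raised the count over all features too. Without scaling, the median of all features was 0.34 and 79.1% of calls were higher, against 47.2%. The 28 calls in the wider lists became 2 with no filter, 8 with the second brightest probe, 0 by the methods' t-test (38 unadjusted) and 6 to 16 without single arrays, and 73.7% of them were higher without scaling, against 57.1%. Of the wider genes, 40 had a second brightest probe that was tested, against 118 tested in the main setting. The cause of these shifts in counts was not tested.

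Signs turned for 8 genes that were not called. Without scaling, Gclm was at 0.07, Txn1 at 0.16, Cul3 at 0.30 and Hmox2 at 0.29; Cul3 was at 0.02 with median scaling and Hmox2 at 0.00 with normexp. Without single arrays, Keap1 ran between -0.01 and 0.08 (with -0.00 without 3MC+TPA array 2), Gclm between -0.66 and 0.10, Txnrd1 between -0.22 and 0.36, with -0.09 without control array 1, Hmox1 between -0.13 and 0.52, Bach1 between -0.23 and 0.33 and Hmox2 between -0.18 and 0.06. Slc7a11 ran between -2.91 and -1.33 over all settings.

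Replicate numbers did not pair the arrays: deviations of arrays with the same number correlated at 0.00281 over 24919 features. With the replicate number as a block, 1 member, 2 member probes, 3586 features and 25 wider genes were called. A slide block was not run, since all arrays share 1 slide. Signals near background limit the fold that the dimmer Slc7a11 probes can show.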
